A study of Mus musculus with 4 samples.

Results

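The genes described here are 9 components of tight junctions: the claudins Cldn5, Cldn12, Cldn1 and Cldn2, the membrane protein occludin (Ocln), the junctional adhesion molecules F11r (JAM-A), Jam2 (JAM-B) and Jam3 (JAM-C), and Tjp1, which encodes the plaque protein ZO-1. They were taken by symbol from the 31053 genes of the count matrices, and each matched 1 gene. Single cells were prepared from the brains of male wild-type C57BL/6 mice aged 12 to 14 weeks, with the cerebellum, striatum, brainstem and olfactory bulbs left out, by dissociation and enrichment with beads against CD31, a surface protein of endothelial cells. In the chronic social defeat (CSD) group a mouse lived for 14 days in the cage of an aggressive CD-1 mouse behind a perforated divider that was lifted for short daily fights, and in the home cage (HC) group mice were housed in pairs for 14 days with the divider kept in place. The methods give the partner of an HC mouse as a CD-1 mouse too, while the labels name no strain for it and place the pair in a new cage. Each group has 2 libraries (CSD 1, CSD 2, HC 1 and HC 2), and each library pooled the cells of 4 mice, so that spread between mice cannot be seen.

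Tight junctions seal the gap between neighbouring cells of a barrier. Claudins form the seal itself: Cldn5 is the defining claudin of the blood-brain barrier, where its loss opens the barrier to small molecules, Cldn1 is a sealing claudin of many epithelia, and Cldn2 forms a channel for small cations and water in leaky epithelia such as the choroid plexus, the tissue that secretes cerebrospinal fluid. Occludin and the immunoglobulin-like JAMs span the membrane beside the claudins, and ZO-1 ties them to the actin cytoskeleton. JAMs are also carried by leukocytes and other cells that form no tight junction.

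The libraries held 27297599 to 30361474 UMIs (unique molecular identifiers, which count captured transcripts), and 32.6 to 56.8% of these lay in the 14415 barcodes kept as cells, those with at least 500 UMIs, at least 250 genes and at most 25% mitochondrial UMIs. Cells were sorted into classes by sets of marker genes that contain none of the 9 junction genes. Class names therefore stand for cells like that type by these markers. This gave 4716 endothelial cells, of which 2412 had capillary, 332 arterial, 333 venous and 36 fenestrated markers, and 1740 choroid plexus, 4545 microglial, 487 pericyte, 421 smooth muscle, 349 astrocyte, 201 ependymal and 122 T cells. CSD 2 held 91 choroid plexus cells against 377 to 859 in the others. Pairs of libraries shared 0 to 9 cell barcodes, with 1.07 to 2.96 expected by chance. The 9 were shared by CSD 1 and HC 2, for which 2.96 were expected. Levels are given as UMIs of the gene per 1000000 UMIs of its class (CPM) with the SD over the 4 libraries. As the libraries read the 3′ end of transcripts, a level is compared between classes for the same gene and not between genes.

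The claudins split between barriers, and the promoters of the 3 that did so are shown here for that reason. They are the 250 bases before the RefSeq start in GRCm38, read on the strand of the gene. Capitals mark matches on either strand to 3 promoter motifs that do not overlap here. The TATA box was searched as TATAAA, the CCAAT box by the letters of its name and the GC box as GGGCGG.
Cldn5, chr16:18776597-18776846, plus strand: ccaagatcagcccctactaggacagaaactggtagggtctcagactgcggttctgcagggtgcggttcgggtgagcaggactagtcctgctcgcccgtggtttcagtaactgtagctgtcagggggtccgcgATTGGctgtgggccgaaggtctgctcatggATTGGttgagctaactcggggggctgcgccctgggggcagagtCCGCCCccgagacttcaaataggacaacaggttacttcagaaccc
Cldn1, chr16:26371840-26372089, minus strand: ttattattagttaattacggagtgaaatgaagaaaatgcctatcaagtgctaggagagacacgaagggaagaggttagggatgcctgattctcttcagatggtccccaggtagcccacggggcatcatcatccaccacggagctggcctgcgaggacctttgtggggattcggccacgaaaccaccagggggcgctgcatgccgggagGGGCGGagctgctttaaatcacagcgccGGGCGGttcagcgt
Cldn2, chrX:139800558-139800807, plus strand: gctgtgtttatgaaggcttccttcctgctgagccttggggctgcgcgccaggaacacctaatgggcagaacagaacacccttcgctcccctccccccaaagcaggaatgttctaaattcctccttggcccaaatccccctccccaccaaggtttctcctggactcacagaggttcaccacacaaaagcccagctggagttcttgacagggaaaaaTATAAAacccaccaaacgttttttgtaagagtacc
The Cldn5 window held 2 CCAAT boxes and 1 GC box, that of Cldn1 2 GC boxes, and that of Cldn2 1 TATA box. Over 32851 RefSeq promoters, windows of this length held a TATA box in 12.4%, a CCAAT box in 33.8% and a GC box in 32.7%, so each of these motifs is common and its match is a description of the sequence only.

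Cldn5 (chromosome 16, 18776847 to 18778262) marked the endothelium. It was at 2745 ± 471 CPM (SD, n = 4 libraries) in capillary, 2898 ± 673 in arterial and 3172 ± 581 in venous cells, and these 3 segments overlapped between libraries. Every library had more Cldn5 in each segment than in any other class, of which the highest were smooth muscle at 148 ± 87.3 CPM, pericytes at 146 ± 40.5 and astrocytes at 143 ± 96.2. The 10 endothelial marker genes used for sorting were also present in those classes, at a summed 903, 1460 and 689 CPM against 25369 in endothelial cells, and Cldn5 was at 235 ± 88.2 CPM in the free RNA, read from droplets of no more than 100 UMIs. The mean in each class outside the endothelium was thus below that of the free RNA. At least 1 Cldn5 UMI was found in 87.5% of endothelial cells and 7.07% of choroid plexus cells, at median depths of 1106 and 13425.5 UMIs. With every cell thinned to 500 UMIs, the shares were 70.0% and 0.982%.

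CSD 1 stood apart for this gene. In capillary cells Cldn5 was at 2074 CPM in CSD 1, 3120 in CSD 2, 2766 in HC 1 and 3020 in HC 2. In arterial cells the values were 1909, 3054, 3234 and 3394 CPM, and in venous cells 2323, 3378, 3636 and 3351 CPM, in the same order. CSD 1 was the lowest library in each of the 3 segments, while CSD 2 lay above both HC libraries in capillary cells, below both in arterial cells and between them in venous cells. The share of endothelial cells with a Cldn5 UMI after thinning was 60.004% in CSD 1 and 71.5 to 74.0% in the others. The summed endothelial marker genes were at 23267 CPM in CSD 1 and 24957 to 27545 CPM in the others, and Cldn5 in the free RNA was at 151 CPM in CSD 1 and 171 to 334 CPM in the others. The part of these differences in the low Cldn5 was not tested.

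The endothelial cells with fenestrated markers, a leaky type found where the brain's vessels lack the blood-brain barrier, held 3 Cldn5 UMIs in 36 cells, a mean of 26.5 ± 19.0 CPM. Their endothelial marker genes were still at 16823 to 18626 CPM. Jam3 was at 310 CPM in CSD 1, 268 in HC 1 and 294 in HC 2, and at 582 CPM in CSD 2 from 1 UMI of its only such cell, against a mean of 8.35 ± 4.42 CPM in capillary cells. These 4 values rest on 27 Jam3 UMIs in all and were not tested, because CSD 2 had 1 and HC 1 had 6 such cells.

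Cldn1 (chromosome 16, 26356642 to 26371841) and Cldn2 (chromosome X, 139800828 to 139811386) marked the choroid plexus. Cldn1 was at 69.1 CPM in CSD 1, 66.2 in CSD 2, 67.2 in HC 1 and 47.5 in HC 2, and Cldn2 at 122, 118, 142 and 114 CPM in the same order. Over the 10 classes plotted, no other class reached the lowest of these values in any library. The next means were 4.48 ± 8.96 CPM for Cldn1 in T cells, from 1 UMI, and 7.28 ± 3.65 CPM for Cldn2 in ependymal cells, and the free RNA had 15.3 ± 7.41 CPM of Cldn1 and 37.9 ± 20.7 CPM of Cldn2. All endothelial cells together held 8 Cldn1 and 14 Cldn2 UMIs. A Cldn1 UMI was found in 48.2% and a Cldn2 UMI in 63.4% of choroid plexus cells, against 0.148% and 0.297% of endothelial cells. After thinning to 500 UMIs the shares were 2.60% and 5.88% against 0.0786% and 0.121%. The 1292 choroid plexus barcodes with at least 5000 UMIs and the 448 shallower ones overlapped between libraries for both genes, at 124 ± 12.5 and 128 ± 30.2 CPM of Cldn2 and 62.9 ± 10.2 and 43.2 ± 24.4 CPM of Cldn1.

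Cldn12 (chromosome 5, 5489537 to 5514958), a claudin whose part in the blood-brain barrier is less settled, was low everywhere. Of the 10 classes its highest mean was 18.7 ± 10.9 CPM in ependymal cells, followed by 12.8 ± 10.2 in venous cells, and none of the classes from ependymal to arterial cells stood clear of the next in every library. It was at 7.54 ± 3.47 CPM in capillary and 7.67 ± 0.912 in choroid plexus cells, against 4.91 ± 0.672 CPM in the free RNA.

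Ocln (chromosome 13, 100496507 to 100552718) was the membrane component found at both barriers and in the ependyma, the ciliated lining of the ventricles. Its mean was 302 ± 29.5 CPM in capillary, 294 ± 32.8 in venous and 221 ± 10.4 in arterial cells, then 89.6 ± 20.1 in ependymal and 50.8 ± 4.81 in choroid plexus cells. Capillary and venous cells overlapped. From venous cells downwards each of these classes lay above the next in every library, and the means of pericytes, smooth muscle, astrocytes, microglia and T cells were at or under 12.3 CPM, below the 35.8 ± 6.39 CPM of the free RNA.

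The 3 JAMs had 3 different distributions. F11r (chromosome 1, 171437535 to 171464603), the JAM of epithelia, endothelia and leukocytes, was highest in microglia, the macrophages of brain tissue, at 84.3 CPM in CSD 1, 114 in CSD 2, 87.9 in HC 1 and 84.6 in HC 2. All 4 microglial values lay above every capillary, arterial, venous, choroid plexus and ependymal value, the next of the 10 classes being capillary cells at 44.3 ± 13.6 CPM. The fenestrated cells are left out of this order, as they held 7 F11r UMIs. At least 1 F11r UMI was in 18.8% of microglia and 6.55% of endothelial cells, at median depths of 2080 and 1106 UMIs, and after thinning in 4.38% and 2.43%. F11r was at 17.9 ± 5.37 CPM in the choroid plexus and 14.2 ± 1.78 CPM in the free RNA. Cldn5 was at 11.7 CPM in the choroid plexus against 235 CPM in the free RNA. The part of free RNA in the choroid plexus F11r was not tested. Among the endothelial cells CSD 2 was the highest library for F11r in all 3 segments. The 4 libraries together held 170 F11r UMIs in capillary, 38 in arterial and 40 in venous cells, and CSD 2 held 7 of the arterial ones.

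Jam2 (chromosome 16, 84774123 to 84825928), an adhesion molecule of endothelial contacts, was at 349 ± 22.5 CPM in capillary, 323 ± 46.2 in venous and 245 ± 53.5 in arterial cells. Venous cells overlapped with both other segments, every capillary value lay above every arterial value, and all 12 values lay above those of the next of the 10 classes, astrocytes at 92.3 ± 26.2 CPM. Ependymal cells had 74.3 ± 11.5 and microglia 62.6 ± 7.78 CPM. The choroid plexus had 4.45 ± 0.821 CPM, under the 41.0 ± 12.6 CPM of the free RNA.

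Jam3 (chromosome 9, 27097384 to 27155421), which binds Jam2, was highest in pericytes among the 10 classes plotted. Oligodendrocytes at 317 ± 170 CPM, their precursor cells at 171 ± 20.9 and the fenestrated cells above are not among these 10 and had means of the same order from 27 to 45 UMIs each. Pericytes, the mural cells of capillaries, had 199 CPM in CSD 1, 223 in CSD 2, 199 in HC 1 and 273 in HC 2, above smooth muscle at 126 ± 7.84 CPM in every library. Ependymal cells overlapped with smooth muscle at 102 ± 21.6 CPM, and astrocytes had 57.9 ± 19.9 CPM. All endothelial cells together had 14.1 ± 3.34 CPM, under the mean of 20.4 ± 8.02 CPM in the free RNA. In the annotation Jam2 overlaps Gm25908 and Tjp1 overlaps Gm44794 and Gm44792 on the same strand, so reads from these shared stretches are uncertain. Jam3 overlaps Gm48796 on the other strand.

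Tjp1 (chromosome 7, 65296165 to 65527781) was found in the endothelium and in pericytes. It was at 530 ± 31.9 CPM in venous and 487 ± 27.9 in capillary cells, which overlapped, then at 326 ± 39.5 in pericytes and 307 ± 60.8 in arterial cells, which overlapped too. Microglia had 118 ± 13.2 CPM, and the choroid plexus had 13.5 ± 2.39 CPM, under the free RNA at 59.6 ± 14.9 CPM.

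**Figure D1:**
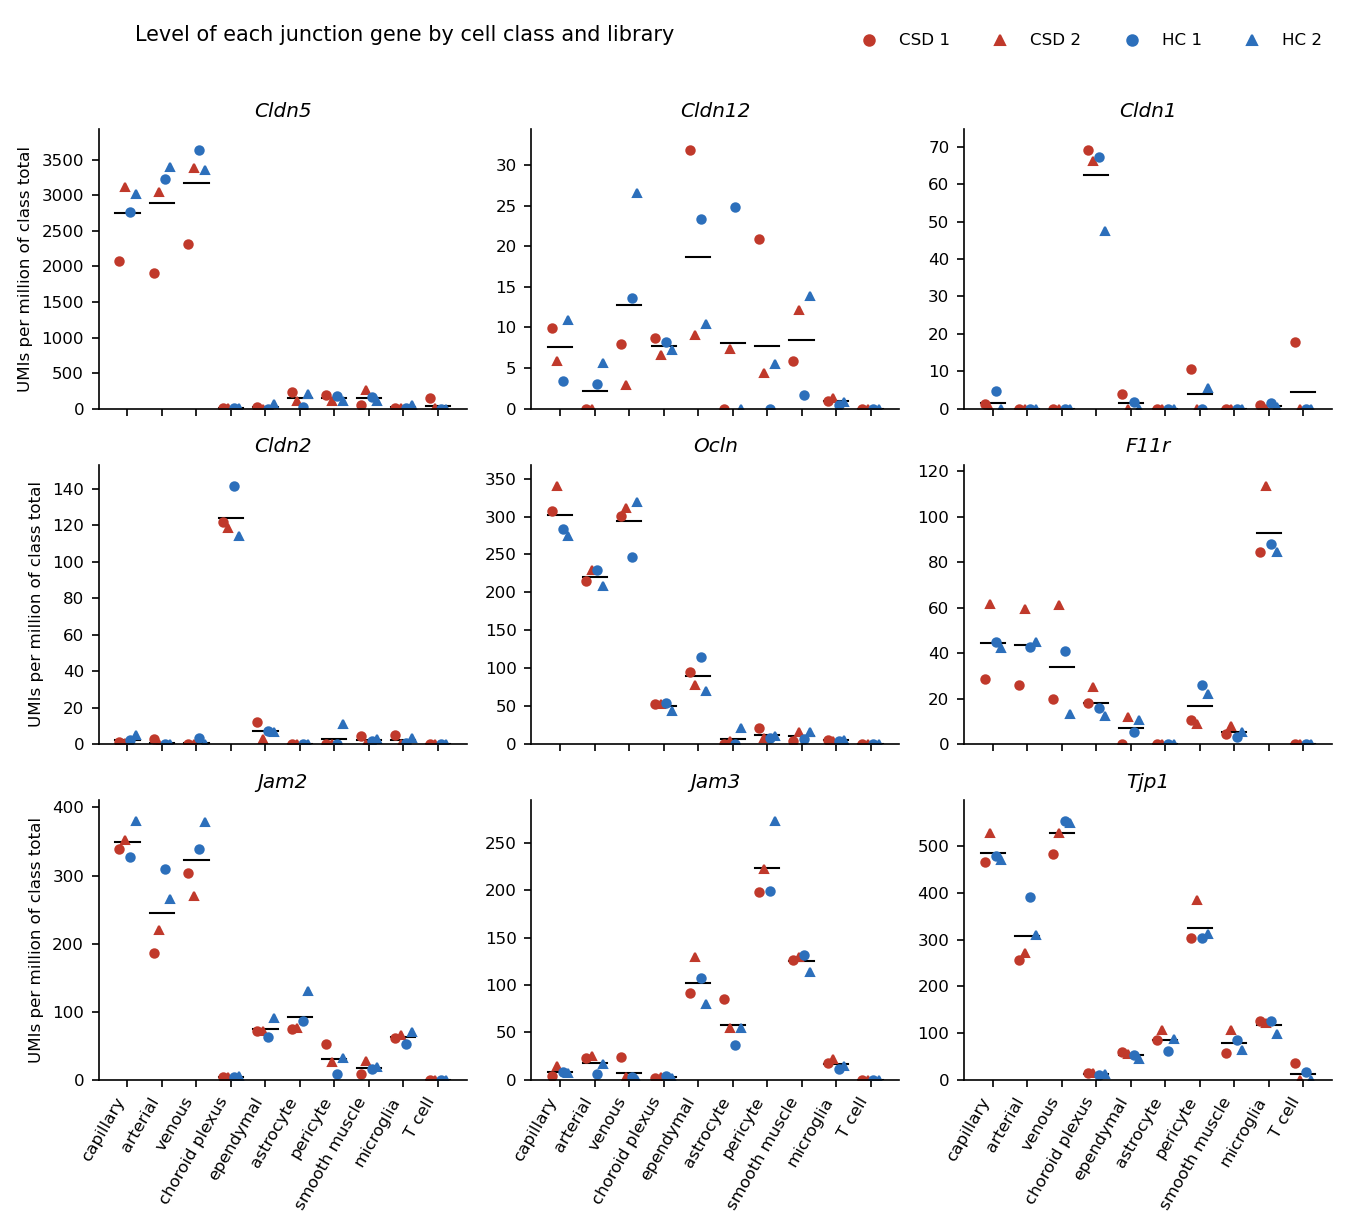
Level of each gene in CPM of the class (vertical axis, linear, a separate scale for each gene) in 10 cell classes, with a point for each of the 4 libraries and a bar at their mean. Cldn5, Ocln and Jam2 stand highest in the 3 endothelial segments, Tjp1 in venous and capillary cells, Cldn1 and Cldn2 in the choroid plexus, Jam3 in pericytes and F11r in microglia.

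The first comparison asked whether the junction genes differ along the vascular tree. UMI counts were summed per library and segment and fitted with edgeR's quasi-likelihood test with library as a block. Median depth was 1190.5 UMIs in capillary, 2056 in arterial and 1834 in venous cells, and its part in the differences was not tested. Levels in this and the following tests are CPM normalised by TMM (trimmed mean of M values, which scales libraries to the bulk of genes). The fit kept 5 of the 9 genes, since Cldn1, Cldn2, Cldn12 and Jam3 were too low. Arterial cells had less Tjp1, Jam2 and Ocln than capillary cells, and Cldn5 and F11r did not pass the test. These 3 of 5 genes called lower compare with 8% of the 5489 genes tested called lower and 17% called in either direction, and the median log2 difference of the 5 was -0.40, against -0.0016 over all genes.

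Tjp1 was at 280, 291, 423 and 335 CPM in the arterial cells of CSD 1, CSD 2, HC 1 and HC 2, and at 504, 562, 504 and 495 CPM in their capillary cells. Every arterial value lay below every capillary value, a log2 difference of -0.61 ± 0.11 (SE, adjusted p = 4.58e-05). Jam2 was at 204, 237, 334 and 286 CPM in arterial and 365, 374, 344 and 399 CPM in capillary cells, with no overlap and a log2 difference of -0.48 ± 0.12 (adjusted p = 0.00453). Ocln was at 236, 246, 248 and 225 CPM in arterial and 332, 363, 298 and 288 CPM in capillary cells, again with no overlap and a log2 difference of -0.40 ± 0.12 (adjusted p = 0.013). Being lower than capillary in all 4 libraries, as these 3 genes were, held for 17.2% of all genes tested. Without CSD 1 the adjusted p rose to 0.14 for Jam2 and 0.119 for Ocln, so these 2 calls rested on that library, while Tjp1 stayed at 0.00522. With stricter marker thresholds Jam2 and Ocln also missed the threshold (adjusted p = 0.0984 and 0.558), as did Ocln by DESeq2 (0.0958).

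Cldn5 differed between arterial and capillary cells by 0.09 ± 0.07 (log2, SE, adjusted p = 0.439), higher in 2 of 4 libraries. F11r differed by -0.0046 ± 0.26 (adjusted p = 0.998), and its sign turned under 5 alternatives. The arterial cells also carried more marker RNA of mural cells (pericytes and smooth muscle): the 8 pericyte markers summed to 968 to 2112 CPM in arterial against 346 to 686 CPM in capillary cells, and the 8 smooth muscle markers to 530 to 1671 against 87.7 to 224 CPM. All arterial values of both sums lay above the capillary ones. The 12 immediate-early genes, which dissociation can induce, summed to 17718, 23718, 15694 and 15643 CPM in the arterial and 12382, 19467, 9457 and 11970 CPM in the capillary cells of CSD 1, CSD 2, HC 1 and HC 2, and the 8 oligodendrocyte markers to 1985, 1552, 1032 and 879 against 1260, 1130, 815 and 819 CPM. Both were higher in arterial cells in 4 of 4 libraries, and the part of these sums in the lower Tjp1, Jam2 and Ocln was not tested.

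Of these 5 genes, 1 was called in venous against capillary cells, Cldn5, while 9.55% of all genes were called and 5.61% called higher. The venous class is not cleanly separate from capillary cells. By clusters, 110 of its 333 cells fell in venous, 138 in capillary and 81 in clusters of no named segment. The capillary class was not clean by this measure either. Of its 2412 cells 899 fell in capillary, 79 in arterial and 1390 in clusters of no named segment. Of the 332 arterial cells 246 fell in arterial clusters and 58 in clusters of no named segment. The 8 capillary markers summed to a mean of 5196 CPM in venous against 6852 CPM in capillary cells. Comparisons of segments were not rerun with classes from clusters. Cldn5 was at 2572, 3620, 3871 and 3510 CPM in venous and 2237, 3322, 2902 and 3170 CPM in capillary cells of CSD 1, CSD 2, HC 1 and HC 2, higher in 4 of 4 libraries (log2 difference 0.22 ± 0.07, adjusted p = 0.0344). This call was lost without CSD 1, HC 1 or HC 2 (adjusted p = 0.0908, 0.277 and 0.0557) and under 4 other settings, among them DESeq2 (0.092). Being higher in 4 of 4 libraries held for 12.7% of all genes tested. The immediate-early genes and the oligodendrocyte markers were also higher in venous than in capillary cells in 4 of 4 libraries, and their part was not tested. Tjp1 was higher in venous cells in 4 of 4 libraries as well but did not pass (0.13 ± 0.10, adjusted p = 0.529), and Ocln, Jam2 and F11r had log2 differences of -0.04, -0.12 and -0.26 (adjusted p = 0.887, 0.637 and 0.657).

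Of the 50 other junction genes listed for comparison (23 tight junction membrane proteins, 15 plaque proteins and 12 adherens junction genes), 19 passed the filter in the segment fit. In arterial against capillary cells 3 were lower and 1 higher. Esam, an endothelial adhesion molecule, was lower by a log2 difference of -0.35 ± 0.09, Afdn (afadin), which links nectins to actin, by -0.40 ± 0.12, and the scaffold Magi3 by -0.65 ± 0.23 (adjusted p = 0.00454, 0.0138 and 0.0421). Vcl (vinculin), an actin linker of adhesions that smooth muscle also makes, was higher by 0.70 ± 0.20 (adjusted p = 0.0124). In venous against capillary cells edgeR called 0 of the 19, with 2 at an unadjusted p under 0.05, and DESeq2 called 0.

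**Figure D2:**
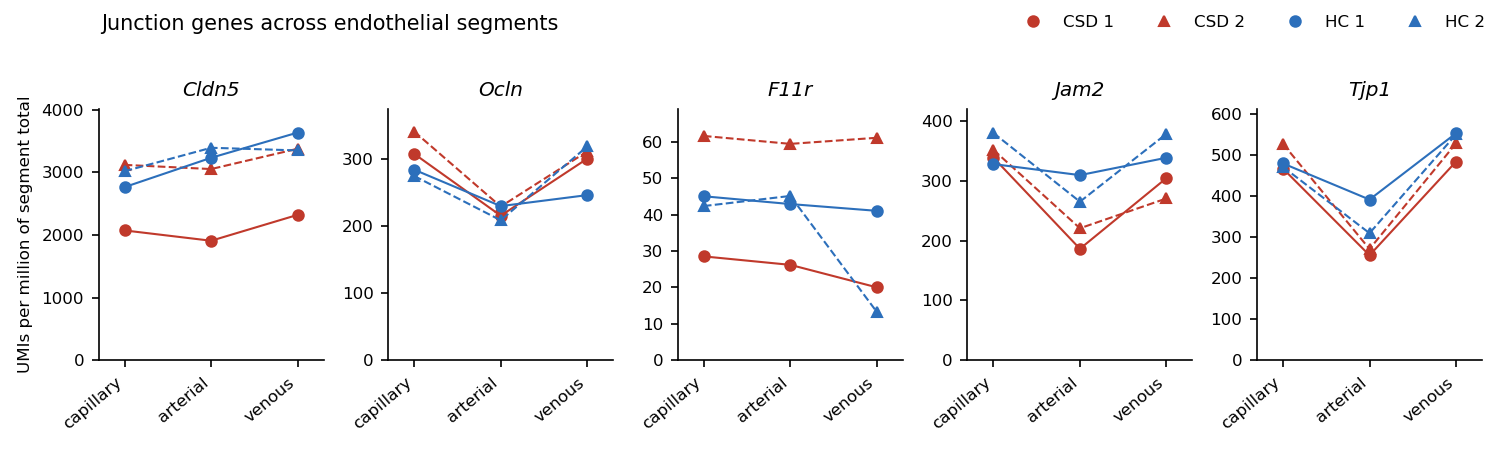
Level of the 5 genes that could be tested, in CPM of the segment (vertical axis from 0, a separate scale for each gene), in capillary, arterial and venous endothelial cells, with a line for each library. Tjp1, Jam2 and Ocln are lower in arterial than in capillary cells in all 4 libraries, and Cldn5 is lowest in CSD 1 in every segment.

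The second comparison set the choroid plexus, whose epithelium carries the blood-cerebrospinal fluid barrier, against all endothelial cells of the same libraries. All 9 genes were tested and called, 3 higher and 6 lower in the choroid plexus. As 79.9% of the 10423 genes tested were called in this comparison (39.5% higher and 40.3% lower), the count says little of these genes, and the sizes carry the description. Their median log2 difference was -1.65, against -0.04 over all genes. TMM factors were 1.29 to 1.36 for the endothelial and 0.736 to 0.771 for the choroid plexus sums, and scaling by library totals in their place moved the median of all genes to -0.87.

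Cldn5 was at 1622, 2379, 2241 and 2302 CPM in the endothelial cells of CSD 1, CSD 2, HC 1 and HC 2 and at 16.8, 16.2, 11.2 and 18.7 CPM in the choroid plexus, a log2 difference of -7.06 ± 0.16 (adjusted p = 1.47e-16). Cldn2 was at 1.43 ± 1.02 CPM in endothelial and 166 ± 15.7 CPM in choroid plexus cells (6.87 ± 0.20, adjusted p = 1.46e-15). Cldn1 was at 0.819 ± 0.744 and 83.7 ± 12.6 CPM (6.67 ± 0.27, adjusted p = 9.94e-14). None of these 3 genes overlapped between the classes. Cldn2 and Cldn1 rest on 14 and 8 endothelial UMIs, and their SEs understate the counting error of so few. Of the 9 genes 5 were lower and 2 higher in the choroid plexus in every library, as were 41.6% and 40.7% of all genes.

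Among the other members, Jam2 was lower in the choroid plexus by -5.36 ± 0.12 (log2, SE, adjusted p = 1.24e-16) and Tjp1 by -4.29 ± 0.11 (adjusted p = 3.92e-16). Ocln was lower by -1.65 ± 0.09 (adjusted p = 1.05e-11), at 68.1 ± 5.93 against 215 ± 22.4 CPM. These levels are relative to the UMIs of the class and not per cell. An Ocln UMI was found in 44.8% of choroid plexus and 32.4% of endothelial cells, at median depths of 13425.5 and 1106 UMIs. With all cells thinned to the same depth, the shares were 2.26% and 13.5%. Jam3 was lower by -1.67 ± 0.29 (adjusted p = 4.72e-05), with the means of both classes under that of the free RNA. F11r was lower by -0.43 ± 0.15 (adjusted p = 0.0117) in 3 of 4 libraries. This call was lost without HC 1 or HC 2 (adjusted p = 0.0636 and 0.0881) and by DESeq2 (0.084). An F11r UMI was in 20.6% of choroid plexus and 6.55% of endothelial cells, and after thinning in 0.808% and 2.43%. For Jam3 the shares were 3.45% and 1.95%, and after thinning 0.14% and 0.596%. Cldn12 was higher by 0.74 ± 0.26 (adjusted p = 0.0142) in 3 of 4 libraries with TMM, and it turned to -0.08 (adjusted p = 0.784) when scaled by library totals. Its call was also lost without HC 1 (adjusted p = 0.11) and by DESeq2 (0.052).

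Of the 50 other junction genes 35 were tested, of which 10 were higher and 20 lower in the choroid plexus, with a median log2 difference of -0.60. By list, 5 of 11 tight junction membrane proteins, 4 of 14 plaque proteins and 1 of 10 adherens junction genes were higher, and 5, 7 and 8 were lower. The higher ones included the claudin Cldn3 (log2 difference 6.69 ± 0.29), the plaque protein Tjp3 or ZO-3 (6.11 ± 0.37) and the adhesion receptor Cxadr (5.17 ± 0.22), with 5, 4 and 14 UMIs in all endothelial cells. Cingulin (Cgn) and Marveld3, a relative of occludin, had 388 and 341 UMIs in the choroid plexus and none in endothelial cells, so that against a floor of 3 UMIs over the group their levels per class total were at least 35.6-fold and 31.3-fold higher. The lower ones with the greatest differences were Cdh5 or VE-cadherin (-6.62 ± 0.14), Esam (-6.53 ± 0.13), Pecam1 or CD31 (-6.48 ± 0.14), Afdn (-3.40 ± 0.11) and Vcl (-2.92 ± 0.14). Pecam1 encodes the protein by which the cells were enriched.

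**Figure D3:**
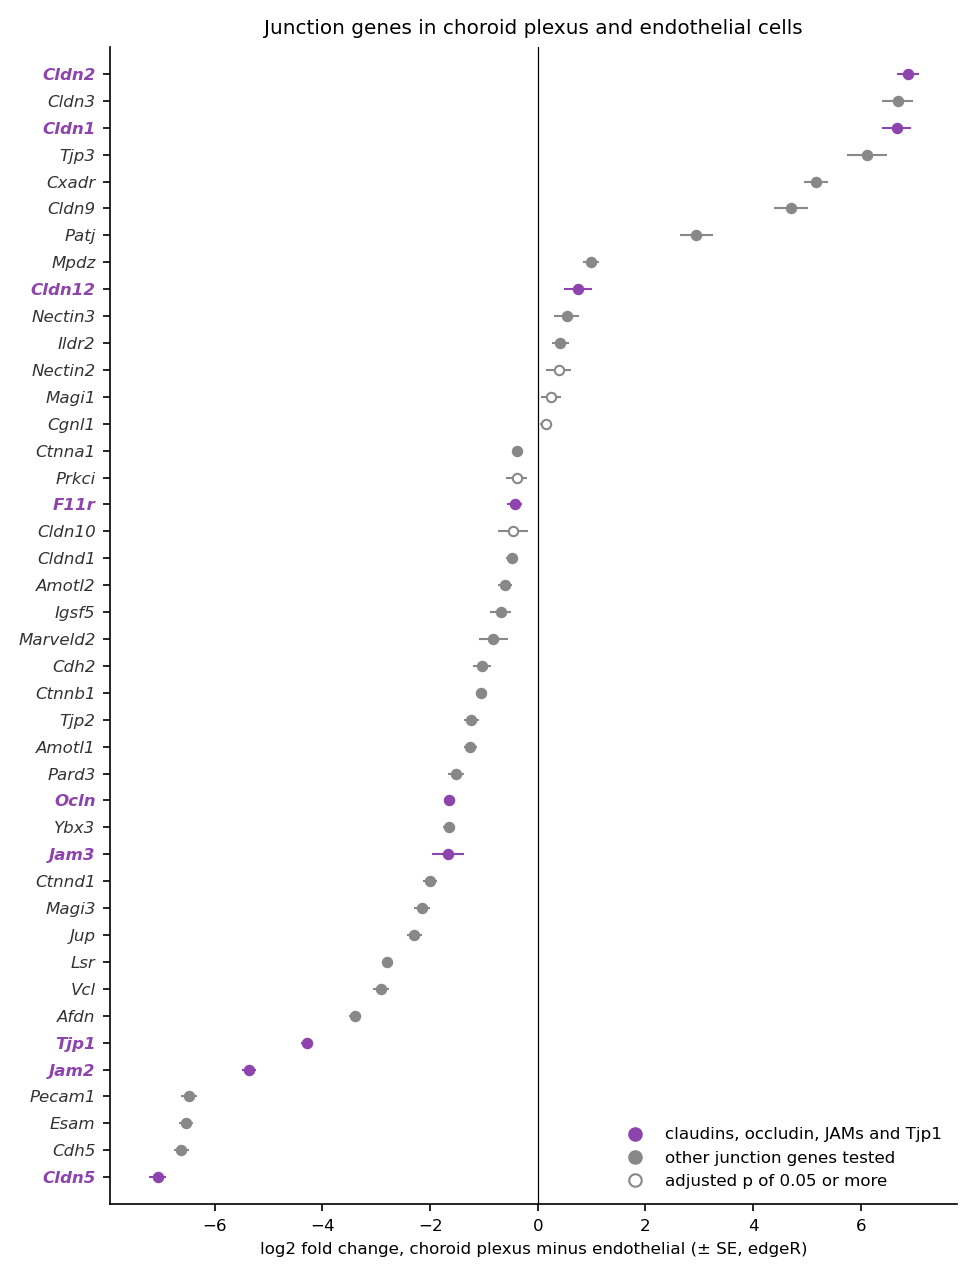
Fitted log2 difference between choroid plexus and endothelial cells (horizontal axis, with SE) for the 9 genes described here, in bold, and 33 other junction genes. Cldn2, Cldn3 and Cldn1 lie at the top and Cldn5 at the bottom. Open points have an adjusted p of 0.05 or more, and Cgn and Marveld3 are left out because they had no endothelial UMI.

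The third comparison asked whether chronic social defeat changed the junction genes. No member was called in any class. Over 49 member tests in 10 classes, edgeR found 0 at an adjusted p under 0.05 and 1 at an unadjusted p under 0.05 (F11r in the choroid plexus), and DESeq2 also found 0 and 1. The lowest adjusted p of the members was 0.703, and their log2 differences ran from -1.29 to 0.67 with SEs of 0.15 to 0.61. Few genes of any kind were called: 0.0604% of those tested in all endothelial cells, 0.15% in capillary, 0.163% in arterial, 0.581% in venous, 0.0604% in choroid plexus, 0.0356% in pericyte and 0.0741% in astrocyte cells, and 0% in microglia, smooth muscle and ependymal cells, where 132, 174 and 168 genes had an unadjusted p under 0.05 and DESeq2 called 1, 0 and 0. The 12 immediate-early genes summed to more in both CSD than in both HC libraries in capillary (12382 and 19467 against 9457 and 11970 CPM), arterial (17718 and 23718 against 15694 and 15643 CPM) and venous cells (20717 and 21266 against 14241 and 20499 CPM). In smooth muscle (19461 and 27088 against 18633 and 28404 CPM) and in microglia the groups overlapped. Whether handling or defeat raised these genes was not tested. The oligodendrocyte markers were also higher in both CSD libraries in capillary (1260 and 1130 against 815 and 819 CPM), arterial (1985 and 1552 against 1032 and 879 CPM) and venous cells (1930 and 1599 against 1042 and 1155 CPM). Their mean sum was 434 CPM in the free RNA, 93.1 CPM in microglia and 20.4 CPM in the choroid plexus. The part of both sums in the differences below was not tested.

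In capillary cells, Cldn5 was at 2177 and 3214 CPM in CSD 1 and CSD 2 and at 2794 and 3027 CPM in HC 1 and HC 2. The groups overlapped and the log2 difference was -0.11 ± 0.19 (SE, edgeR adjusted p = 0.92). It became 0.14 without CSD 1 and -0.41 without CSD 2, so its sign rested on a single library. Over all endothelial cells the Cldn5 difference was -0.18 ± 0.21 (edgeR adjusted p = 0.884), 0.09 without CSD 1. Of the 7 members tested there, Ocln and Jam3 had both CSD libraries above both HC libraries, as 18.2% of genes did. In capillary cells Ocln was at 323 and 351 CPM in the CSD and 287 and 275 CPM in the HC libraries, a difference of 0.26 ± 0.16 (edgeR adjusted p = 0.703).

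The capillary Tjp1 values, 491 and 544 CPM in CSD and 485 and 473 CPM in HC, also did not overlap (0.11 ± 0.15, edgeR adjusted p = 0.899). Having both CSD libraries above both HC libraries, as Ocln and Tjp1 did, held for 20.1% of the 7982 genes tested in capillary cells, beside 2 of 5 members. Jam2 (0.01 ± 0.16) and F11r (0.15 ± 0.30) overlapped between groups.

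In arterial cells 3 of the 5 genes had both CSD libraries below both HC libraries, against 17.1% of the 4301 genes tested. Cldn5 was at 2149 and 3371 CPM in CSD and 3614 and 3748 CPM in HC (-0.43 ± 0.22, edgeR adjusted p = 0.825). Jam2 was at 210 and 243 CPM in CSD and 346 and 293 CPM in HC (-0.54 ± 0.28, adjusted p = 0.832), and Tjp1 at 288 and 300 CPM in CSD and 438 and 342 CPM in HC (-0.43 ± 0.27, adjusted p = 0.903). These differences kept their sign when any library was left out, and CSD 2 held 43 arterial cells. The smooth muscle markers were higher in both CSD libraries in the same cells, at 1147 and 1671 CPM against 530 and 846 CPM. The 10 arterial markers were lower in both, at 7943 and 7516 CPM against 8164 and 8800 CPM. All but Tm4sf1 of these 10 were used to define the class. Their part in the lower values was not tested.

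In venous cells Cldn5 was at 2638 and 3733 CPM in CSD and 3947 and 3587 CPM in HC (-0.24 ± 0.23, edgeR adjusted p = 0.886). Jam2 was at 346 and 299 against 367 and 405 CPM (-0.26 ± 0.24, adjusted p = 0.88). It and Tjp1 (-0.07 ± 0.22) had both CSD libraries below both HC libraries, as 17.3% of genes did, and Ocln had both above (0.19 ± 0.25), as 18.9% did. The 8 neutrophil and monocyte markers include Lcn2. They summed to 569 and 631 CPM in the venous cells of CSD against 13.7 and 13.3 CPM in HC. In the free RNA they summed to 60.9 and 37.4 CPM in CSD and 13.4 and 24.3 CPM in HC. Of these markers only Lcn2 was among the 10 genes most raised in venous cells relative to the other endothelial cells. The share of Lcn2 in the sum was not worked out, and the part of these markers in the differences above was not tested.

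Whether the CSD effect differs between segments was tested as an interaction over the 3 segments. The CSD difference was lower in arterial than in capillary cells by -0.57 ± 0.24 for Jam2, -0.51 ± 0.22 for Tjp1 and -0.30 ± 0.13 for Cldn5 (log2, SE). The unadjusted edgeR p-values were 0.0252, 0.0236 and 0.0331, and none remained after adjustment over 6287 genes, of which 0.0636% were called (adjusted p = 0.9997 for each). For venous against capillary cells 0.0318% of genes and 0 of 5 members were called, and no member had an unadjusted p under 0.05. DESeq2 was not run for this test. A difference between the segments was therefore not shown for these genes.

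In the choroid plexus Cldn2 was at 119 and 120 CPM in CSD and 141 and 117 CPM in HC (-0.11 ± 0.17), which overlapped. Cldn1 was at 67.4 and 67.1 CPM in CSD and 66.7 and 48.7 CPM in HC (0.22 ± 0.18). F11r, at 17.6 and 25.5 against 15.9 and 12.7 CPM (0.52 ± 0.22), and Tjp1, at 15.2 and 15.7 against 10.8 and 12.5 CPM (0.40 ± 0.21), were also higher in both CSD libraries. The edgeR adjusted p was 0.9996 for each of these 4 genes, and 14.3% of the 11582 genes tested had both CSD libraries above both HC libraries, against 3 of 9 members.

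Microglial F11r was at 81.6 and 122 CPM in CSD and 85.0 and 86.1 CPM in HC (0.25 ± 0.26, edgeR adjusted p = 0.99998), so that the groups overlapped. Microglial Jam3 was at 17.4 and 23.5 against 10.9 and 14.8 CPM (0.67 ± 0.30). Without TMM its mean was 16.4 ± 4.55 CPM, under the Jam3 mean of the free RNA. Tjp1 was at 122 and 132 against 121 and 99.97 CPM (0.20 ± 0.23). Ocln was at 6.00 and 5.15 against 4.29 and 5.06 CPM (0.26 ± 0.43), from 57 UMIs and under the free RNA at 35.8 CPM. These 3 of 6 members had both CSD libraries above both HC libraries, as did 10.6% of genes. Cldn5 in microglia was at 13.5, 10.7, 12.1 and 47.7 CPM in CSD 1, CSD 2, HC 1 and HC 2 (-1.29 ± 0.59), a difference that became 0.02 without HC 2, where the endothelial markers in microglia were also highest, at 376 CPM against 104 to 145 CPM. Pericyte Jam3 was at 243 and 276 CPM in CSD and 237 and 340 CPM in HC (-0.16 ± 0.31, edgeR adjusted p = 0.999), which overlapped. In ependymal cells 1 of 4 members, Tjp1, had both CSD libraries above both HC libraries (0.17 ± 0.35), as 15.4% of genes did.

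**Figure D4:**
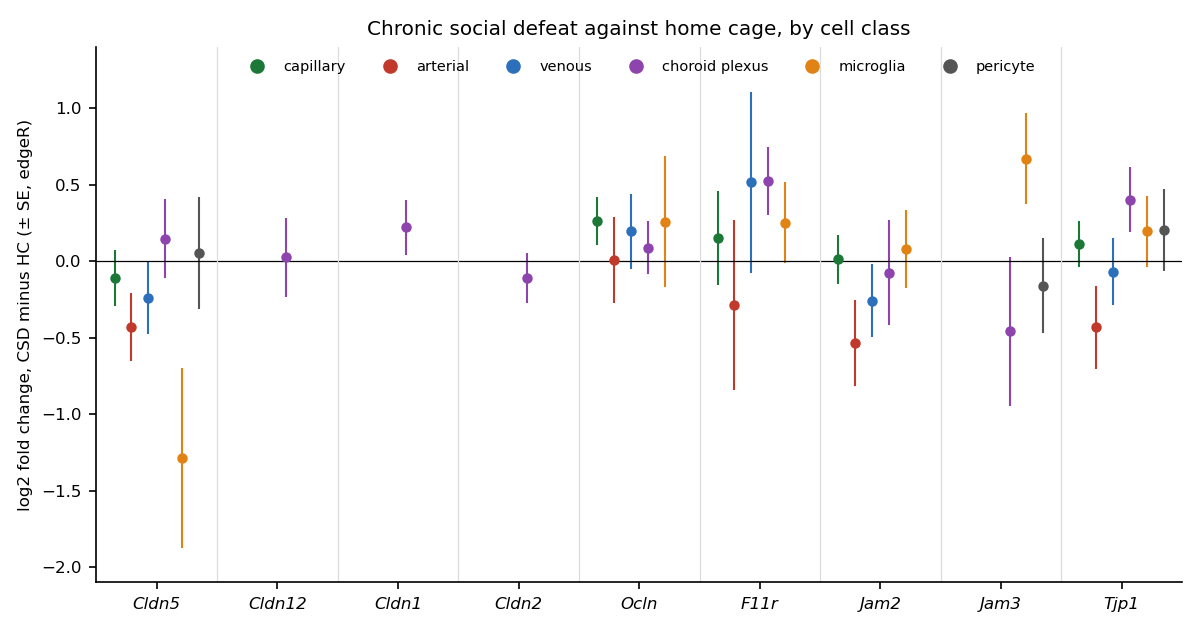
Fitted log2 difference between chronic social defeat and home cage (vertical axis, with SE) for each gene in the classes where it passed the filter on low counts, out of 6 classes shown by colour. No point passed the test, the arterial values of Cldn5, Jam2 and Tjp1 lie below 0, and the microglial Cldn5 value rests on 1 library.

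Of the other junction genes edgeR called 0 of 25 in capillary, 0 of 19 in arterial, 0 of 19 in venous and 0 of 40 in choroid plexus cells, with 1, 0, 0 and 1 at an unadjusted p under 0.05, and DESeq2 called 0 in each. Their median log2 differences were 0.07, 0.01, 0.14 and 0.06.

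The genes most like each member were sought over 7013 genes, marker genes left out, by Pearson's r of mean log2(CPM + 10) across 10 classes, as a description in which the classes share libraries and free RNA. Cldn5 was most like Dync1h1 (r = 0.989), a dynein motor subunit and Rasip1 (0.987), a regulator of endothelial junctions and lumens. Cldn1 was most like Kcne2 (0.996), a potassium channel subunit of choroid plexus, and Cldn2 like Clic3 (0.990) and Crb3 (0.983), a polarity protein of epithelia. Ocln was most like Paqr5 (0.979), Jam2 like Klhl5 (0.969), Jam3 like Dmd (0.946), which encodes dystrophin, Tjp1 like Reep3 (0.981), F11r like Snx2 (0.961) and Cldn12 like Cnn3 (0.898). Between members, r was highest at 0.958 for Cldn1 and Cldn2, 0.845 for Jam2 and Tjp1, 0.833 for Cldn5 and Tjp1, and 0.802 for Cldn5 and Jam2. It was lowest at -0.558 for Cldn1 and Tjp1 and -0.553 for Cldn1 and Jam2, and was -0.463 for Cldn5 and Cldn1. Capillary, arterial and venous cells count as separate classes in these correlations.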

How the data were processed

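Count matrices of UMIs per gene and barcode for 4 libraries (10x 3′ chemistry), 2 per group, were used as deposited. The authors made them with Cell Ranger against GRCm38 (mm10), version 4.0 in the submitters' notes and 3.1.0 in the file headers and they list barcodes without cells too. Barcodes with at least 500 UMIs, 250 genes and at most 25% mitochondrial UMIs were kept and placed in classes by marker genes. Each class needed a score of at least 0.2 of its reference level, from at least 3 UMIs of at least 2 marker genes. Any other class's score had to be no more than 0.4 of that score. Among the segments, arterial, venous and fenestrated cells were held to this against each other only. Their capillary score was not limited. Capillary cells needed the 0.2 score too, but with every other segment's score under 0.15 of its reference level. Of the endothelial cells 430 lay within 0.75 to 1.25 times the score threshold for capillary, 332 for arterial and 523 for venous markers. Counts were summed per library and class, for classes with at least 10 cells in every library, and tested with edgeR 4.0.16 (quasi-likelihood test, filterByExpr, TMM, R 4.3.3), two-sided, with Benjamini-Hochberg adjustment over all genes tested in the fit and a threshold of 0.05, with library as a block where classes of the same libraries were compared. The library, a pool of mice, is the replicate, so p-values of CSD against HC in a class measure the spread between pools. With library as a block, p-values are set against how far class differences vary between libraries. For CSD against HC, exact permutation of 2 against 2 libraries cannot give a p below 0.33. For edgeR the SE was taken as the absolute log2 difference divided by the square root of the F statistic. Where a class holds few UMIs of a gene, this SE can be smaller than the counting error. DESeq2 1.42.0 was an alternative. Python 3.11.15 and scanpy 1.11.5 served for clustering, with the 9 genes left out.

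Doublets were not removed: Scrublet marked 4 and 11 cells in CSD 1 and CSD 2 (0.0981% and 0.431%) and 35 and 73 in HC 1 and HC 2 (1.23% and 1.48%), and below 0.5% the caller was taken not to have worked. Shares of cells were compared after thinning to 500 UMIs, and floors (3 counts) cover counting error only. The statistics were also run on simulated data, and the share of set changes recovered is not given here. The 9 genes, the marker genes and the junction lists were chosen with earlier results of these data known. Named are the 9 genes, of each junction list comparison at most 5 genes per direction with the largest called change, and genes of the highest pattern correlation, among genes at 50 CPM or more in a class. RefSeq promoters were given for 7 of the 9 genes.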

Additional observations from a re-analysis of the deposited data

How the results depend on the processing

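Of the log2 differences recomputed under the alternatives, 559 kept their direction and side of the threshold, 22 turned sign, 17 lost and 1 gained a call. Some alternatives could not move a result. A filter on genes per UMI and the removal of Scrublet-marked cells left the sums of endothelial cells and their capillary, arterial and venous segments unchanged. The counts below include members called between CSD and HC, of which the main fits had none. Of the counts, 324 stayed within 1.5 times and 94 moved, mostly in the number of genes called between CSD and HC, and the cause of these moves was not tested. These tests have 2 libraries a group and 43 to 114 arterial or venous cells in each library.

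Genes called between CSD and HC were 6 in all endothelial cells and became 66 without the filter on low counts, 23 with the stricter marker thresholds, 57 with DESeq2 and 11 without the fenestrated cells (an alternative chosen after seeing the data). In capillary cells 12 became 151 without the filter, 7 with at least 1000 UMIs per cell, 31 with the stricter thresholds, 27 with DESeq2 and 22 with at most 10% mitochondrial UMIs. In arterial cells 7 became 11, 3, 1, 1 and 2 under the same 5 settings and 1 with classes from clusters. In venous cells 26 became 52 without the filter, 14 with at least 1000 UMIs, 14 with the stricter thresholds and 17 with DESeq2. In the choroid plexus 7 became 40 without the filter, 12 with classes from clusters and 13 in barcodes with at least 5000 UMIs (chosen after seeing the data). Microglia went from 0 to 24 without the filter and 1 with DESeq2, and the 24 hold 1 member, Cldn5 (log2 difference -1.26, adjusted p = 0.0371). Pericytes went from 1 to 6 without the filter, 2 with at least 1000 UMIs and 0 with DESeq2, with clusters and with at most 10% mitochondrial UMIs. Smooth muscle went from 0 to 7 without the filter and 1 with clusters, and ependymal cells from 0 to 2 without the filter. Astrocytes went from 1 to 0 with at least 1000 UMIs, with DESeq2 and with at most 10% mitochondrial UMIs, to 5 with the stricter thresholds and to 3 with clusters.

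Arterial against capillary cells, 932 genes and 3 members were called, and 493 genes and 1 member with the stricter thresholds. Venous against capillary cells, 524 genes were called and 333 with DESeq2, and the 1 member, Cldn5, became 0 with library totals, without the filter, with the stricter thresholds and with DESeq2 (edgeR adjusted p = 0.0526 to 0.106 in the first 3). Genes called for a different CSD effect in arterial and capillary cells went from 4 to 2 with at least 1000 UMIs and 0 with the stricter thresholds.

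Signs turned for Jam2 between CSD and HC in capillary cells (-0.038 with library totals, -0.18 with clusters, -0.0054 with at most 10% mitochondrial UMIs), for Cldn2 (0.12) and Tjp1 (-0.013) in the choroid plexus with at most 10% mitochondrial UMIs, and for Jam3 in pericytes (0.27 with at least 1000 UMIs, 0.068 with the stricter thresholds). They also turned for F11r in arterial against capillary cells (0.020 with RLE, 0.043 with at least 1000 UMIs, 0.015 with DESeq2) and for Cldn12 in choroid plexus against endothelial cells (-0.080 with library totals).

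With 1 library left out, which leaves a group with 1 library assumed to vary like the others, genes called between CSD and HC ran from 7 to 236 in all endothelial, 47 to 329 in capillary, 4 to 44 in arterial, 17 to 101 in venous, 0 to 58 in choroid plexus, 0 to 8 in microglia, 2 to 40 in pericyte, 0 to 23 in smooth muscle, 0 to 3 in astrocyte and 0 to 35 in ependymal cells. They ran from 693 to 839 in arterial and 361 to 473 in venous against capillary cells, from 0 to 13 for the arterial and 2 to 6 for the venous difference in CSD effect. Members called ran from 0 to 1 in smooth muscle (1 without CSD 2), 1 to 3 in arterial (1 without CSD 1) and 0 to 1 in venous against capillary cells, and 7 to 9 in choroid plexus against endothelial cells (7 without HC 1). Log2 differences between CSD and HC that turned sign ran from -0.41 to 0.14 for Cldn5, -0.54 to 0.53 for F11r and -0.075 to 0.12 for Jam2 in capillary cells, -0.50 to 0.091 for Cldn5 in all endothelial cells, -0.24 to 0.031 for Cldn2 in the choroid plexus, -0.066 to 0.52 for F11r and -1.96 to 0.023 for Cldn5 in microglia, and -0.38 to 0.15 for Jam3 in pericytes. Against capillary cells F11r ran from -0.035 to 0.024 in arterial and Ocln from -0.10 to 0.012 in venous cells.

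The labels do not tie a replicate number to a shared day or batch, and the 2 pairs share only a number: deviations of CSD 1 and HC 1 from their group means correlated across genes with r = 0.0225 in capillary, 0.137 in arterial, 0.116 in venous, 0.0672 in choroid plexus and 0.0833 in all endothelial cells. With the replicate block, edgeR called 105 genes in all endothelial, 83 in capillary, 46 in arterial, 94 in venous, 14 in choroid plexus, 12 in microglial and 5 in pericyte cells, and 0 members in any class.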

Other observations

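Jam3 and Jam2 were also present in rare classes that held too few cells for a test. In 23 oligodendrocytes, the myelin-forming cells, Jam3 was at 155 CPM in CSD 1, 365 in CSD 2, 535 in HC 1 and 213 in HC 2, from 34 UMIs. In 89 oligodendrocyte precursor cells it was at 177, 141, 190 and 175 CPM from 45 UMIs, above the free-RNA mean of 20.4 CPM in every library. In these precursor cells Jam2 was at 122, 91.3, 232 and 175 CPM from 36 UMIs. In 61 fibroblasts Jam3 was at 74.8, 48.8, 38.8 and 55.3 CPM from 11 UMIs, in the same order of libraries.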
